A study of Mus musculus with 4 samples.

Results

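The cells described here are the 94 Ace/Treml4-gated cells of injured and uninjured mouse tibial muscle, chosen as candidate nonclassical monocytes from 59824 cells with a mitochondrial share of at most 10%. A cell entered the gate with at least 2 UMIs (unique molecular identifiers, the counted RNA molecules of a droplet) of Ace and Treml4 together, at least 1 of Csf1r, at least 1 of Ptprc, at most 1 of Ly6c2 and at most 9 of C1qa, C1qb and C1qc together. The cells were thus selected on measured UMIs of these genes, whose levels are given as a description and are not tested. All cells came from Nse-Bmp4 mice on a C57BL/6 background at 6 to 8 weeks of age, in which the neuron specific enolase promoter drives Bmp4, a model of heterotopic ossification (bone forming in soft tissue). The 4 single-cell RNA sequencing libraries were uninjured muscle and muscle taken 1, 3 or 7 days (dpi, days post injury) after cardiotoxin (CTX), a snake toxin that kills muscle fibres, and each library pooled 3 tibial muscles digested with collagenase. They held 12031, 11722, 15160 and 23752 barcodes with 112317902, 91146335, 116346301 and 129007669 UMIs in the order Uninjured, 1, 3 and 7 dpi, which is the order of all values below. Since each time point is 1 library, a time point and a library cannot be told apart, and no test between time points was possible.

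Nonclassical monocytes are the blood monocytes with low Ly6C that crawl along the inside of vessels. They arise largely from classical, Ly6C-high monocytes, depend on the nuclear receptor NR4A1 and on signals through the CSF1 receptor, and express Treml4, a receptor of the TREM family, and Ace, angiotensin-converting enzyme, a peptidase of the cell surface. Ace is not a gene of monocytes alone: endothelial cells and fibroblasts can express it as well. In the GRCm38 (mm10) assembly Treml4 lies on chromosome 17 from 48264295 to 48275360 and Ace on chromosome 11 from 105967945 to 105989964, both on the plus strand and both protein coding genes in GENCODE M21.

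Checked against other markers, the label nonclassical monocyte by itself described at most 46 of the 94 cells. The other 48 carried mesenchymal RNA, many of them beside monocyte RNA, so the label alone does not describe them. Of these 48, 3 held Treml4 and 21 had at least 10 UMIs of Lyz2. Whether such cells hold RNA of a nonclassical monocyte was not tested. In these 48, 8 of 22 nonclassical monocyte genes were above mesenchymal cells in all 4 libraries, and 0 were below. Against classical monocytes 0 were above and 11 below in all 4. The share of all genes with such an order was not counted for these cells, so both counts only describe them. The share of a cell's UMIs that came from 8 mesenchymal genes (Col1a1, Col1a2, Col3a1, Dcn, Lum, Prrx1, Pdgfra and Postn, which encode collagens, matrix proteoglycans and markers of fibroblasts and their progenitors) split the 94 cells at a gap. The highest share below the gap was 0.425% and the lowest share above it was 0.967%. A limit of 0.5%, set after these values were seen, left 46 cells under it (15, 15, 8 and 8 by library) and 48 over it (19, 12, 12 and 5). The median share was 0.0383% under the limit and 2.70% over it, with a highest value of 7.09%. The 48 cells over the limit are therefore called mesenchymal-rich gated cells here, and the 46 under it mesenchymal-poor gated cells.

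**Figure D1:**
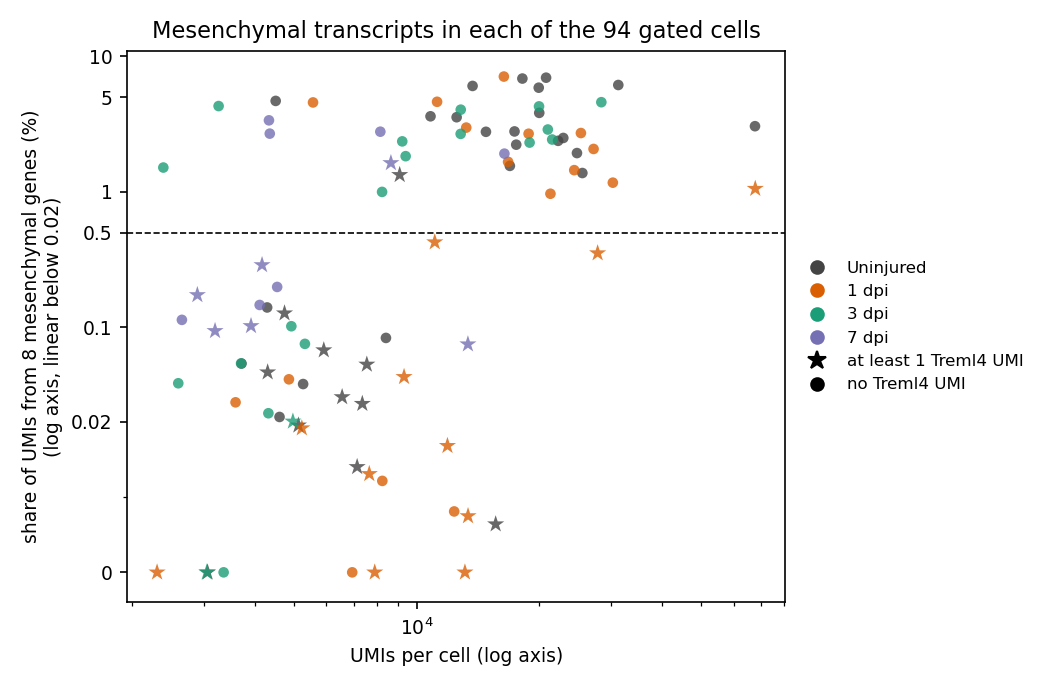
Share of each gated cell's UMIs from the 8 mesenchymal genes (y axis, log scale, linear below 0.02%) against its UMIs (x axis, log scale), 94 cells coloured by library, stars for cells with at least 1 Treml4 UMI. The dashed line is the 0.5% limit: 27 of the 30 cells with Treml4 lie under it, and no cell lies between 0.425% and 0.967%.

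The mesenchymal-rich and mesenchymal-poor cells differed in depth and in monocyte markers. Mesenchymal-rich cells had a median of 17156 UMIs (range 2384 to 67853) against 5040.5 (2301 to 27817) in mesenchymal-poor cells. Of the 48 mesenchymal-rich cells, 31 (64.6%) lay among the 7.5% of cells of their library with the highest Scrublet doublet score, against 3 of 46 (6.52%) mesenchymal-poor cells and 50 of 778 (6.43%) classical monocytes. Doublets were not removed, and their part in these cells was not tested beyond this score.

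Lyz2, which encodes lysozyme and is abundant in monocytes and macrophages, had at least 10 UMIs in 44 of 46 mesenchymal-poor cells and in 21 of 48 mesenchymal-rich cells. It had 0 or 1 UMI in 21 mesenchymal-rich cells and in 1 mesenchymal-poor cell. Csf1r and Ptprc were used by the rule, so their counts only describe the cells: Csf1r was at exactly 1 UMI in 30 of 48 against 14 of 46, Ptprc at exactly 1 in 18 against 4, and both at exactly 1 in 13 against 1.

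Counts of cells with markers of other cell types are given with the summed levels per UMI, since the mesenchymal-rich cells were deeper (median 17156 against 5040.5 UMIs). At least 3 UMIs of the conventional dendritic cell genes were found in 19 mesenchymal-rich and 6 mesenchymal-poor cells, and at least 3 of the endothelial genes in 7 and 1. The B cell genes reached 3 UMIs in 38 mesenchymal-rich and 9 mesenchymal-poor cells, a list that holds Ebf1, which mesenchymal cells express too. Natural killer and T cell genes reached 3 UMIs in 3 mesenchymal-rich cells and in 0 of 46 mesenchymal-poor cells, which allows a share of up to 7.71% (exact binomial interval, counting error only). At least 5 UMIs of the cell cycle genes were present in 14 mesenchymal-rich and 1 mesenchymal-poor cells, and Mki67 in 11 and 2. Per UMI the order differed by list. In the Uninjured, 1, 3 and 7 dpi libraries the summed cell cycle genes were at 579, 715, 637 and 645 CPM in mesenchymal-rich cells and 107, 275, 62.1 and 155 CPM in mesenchymal-poor cells. A few cells carried these sums: 2 mesenchymal-rich cells held 206 of 226 UMIs in the Uninjured library and 87 of 107 at 3 dpi. Without the 2 cells with the most UMIs of the list in each group, an alternative chosen after seeing the data, the cell cycle genes were at 65.5, 258, 169 and 284 CPM against 95.4, 122, 0 and 89.8, so the order turned in the Uninjured library. The conventional dendritic cell genes were at 335, 101, 250.2 and 23.9 CPM against 513, 405, 62.1 and 77.3, and single mesenchymal-poor cells held 38 of 48 UMIs in the Uninjured library and 38 of 59 at 1 dpi. Without the top cell of each group they were at 277, 70.9, 196 and 0 CPM against 128, 157, 34.7 and 28.7, so the order turned in the Uninjured library, and at 7 dpi it rested on 1 UMI against 3. The B cell genes, at 402, 546, 316 and 406 CPM against 107, 577, 1025 and 232, and the endothelial genes, at 38.4, 75.5, 41.7 and 71.6 CPM against 21.4, 41.2, 0 and 2112, overlapped between the groups. Single mesenchymal-poor cells held 29 and 33 B cell UMIs at 1 dpi, 31 at 3 dpi and 82 endothelial UMIs at 7 dpi. The higher mesenchymal-poor levels of B cell genes at 1 and 3 dpi and of endothelial genes at 7 dpi rested on these cells.

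Ace and Treml4, the 2 genes summed by the gate, did not mark the same cells. Ace had at least 1 UMI in 41 of 46 mesenchymal-poor and 47 of 48 mesenchymal-rich cells. Treml4 had at least 1 UMI in 27 of 46 (58.7%, 95% interval 43.2 to 73.0) and in 3 of 48 (6.25%, 1.31 to 17.2). Both genes were seen together in 22 mesenchymal-poor and 2 mesenchymal-rich cells. Nearly all Treml4 of the gate thus lay in mesenchymal-poor cells, while Ace lay in both groups.

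The summed levels, given as CPM (UMIs of a gene scaled to a common total per library and cell group), show the same. In mesenchymal-poor cells Treml4 was at 256 CPM (interval 164 to 382), 131 (78.6 to 204), 93.2 (19.2 to 272) and 206 (89.0 to 406). In mesenchymal-rich cells it was at 2.56, 7.19, 0 and 47.8 CPM, from 1, 2, 0 and 2 UMIs, where 3 UMIs would be 7.68, 10.8, 17.9 and 71.6 CPM, so each of these levels was under the floor of 3 UMIs, and the 3 dpi level of mesenchymal-poor cells was at it. Treml4 was higher in mesenchymal-poor cells in each of the 4 libraries. The gate summed Ace and Treml4, so a cell with little Ace had to carry Treml4. The difference is thus partly set by the rule and only describes the cells. Ace was at 470 CPM (342 to 631), 213 (145 to 302), 652 (404 to 997) and 335 (178 to 573) in mesenchymal-poor cells and at 266, 356, 256 and 191 CPM in mesenchymal-rich cells. For Ace the groups overlapped, with the 1 dpi library in the opposite order to the other three.

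**Figure D2:**
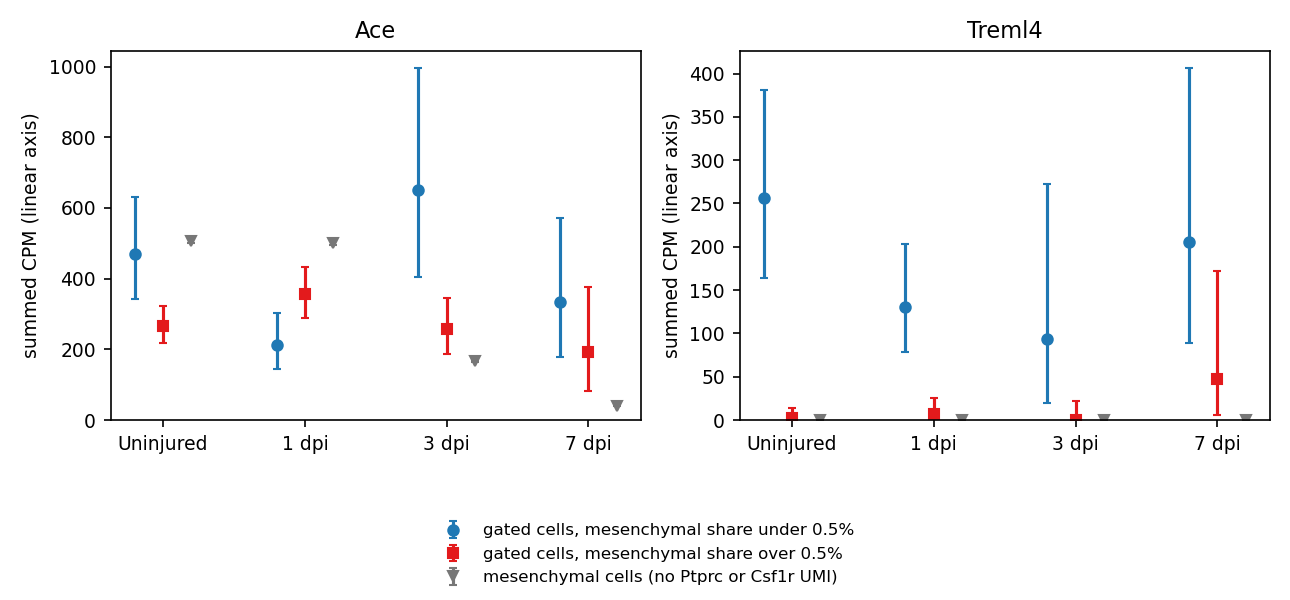
Summed level of Ace (left) and Treml4 (right) in CPM on linear axes by library, for mesenchymal-poor (blue circles) and mesenchymal-rich (red squares) gated cells and for mesenchymal cells without a Ptprc or Csf1r UMI (grey triangles), with exact Poisson 95% intervals. Treml4 reached 93.2 to 256 CPM in mesenchymal-poor cells and at most 47.8 CPM elsewhere, while Ace was at 507 and 502 CPM in the mesenchymal cells of the Uninjured and 1 dpi libraries.

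Ace was widespread in the muscle's mesenchymal cells before and early after injury. Mesenchymal cells without a Ptprc or Csf1r UMI held Ace at 507, 502, 166 and 40.5 CPM, and Treml4 in 11 of 37170 cells. Among all cells with a mesenchymal share of at least 1%, Ace was detected in 91.3%, 83.6%, 56.1% and 13.7%, Csf1r in 1.92%, 2.84%, 2.19% and 2.73%, and Ptprc in 2.22%, 11.5%, 9.33% and 9.26%. The Ace requirement therefore admitted most mesenchymal cells of the Uninjured library: 7920 cells passed it there, 49 of them under the mesenchymal limit, against 866 and 35 at 7 dpi. Adding Csf1r left 166, 143, 72 and 38 cells, of which 26, 35, 11 and 15 were under the limit, and adding Ptprc left 64, 95, 37 and 22, of which 26, 33, 9 and 15 were under it. The immune genes thus removed mainly mesenchymal-rich cells but left some of them.

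At the edges of the gate, 31 gated cells had exactly 2 UMIs of Ace and Treml4, and 78 cells that met all other conditions had exactly 1. Of the gated cells 21 had 1 Ly6c2 UMI and the rest 0, and 84 cells were outside for 2 or more Ly6c2 UMIs, 10 of them with exactly 2. For the C1q genes 22 cells were outside with 10 or more UMIs, while 10 gated cells had any and the highest had 7.

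Among the mesenchymal-poor cells a nonclassical monocyte profile was present. Nr4a1, the nuclear receptor that this lineage needs, was detected in 45 of 46 cells, at 2030, 1477, 2670 and 721 CPM, against 1307, 1115, 1008 and 837 in classical monocytes of the same libraries. The classical monocytes are 778 cells (43, 554, 131 and 50) with at least 2 Ly6c2 UMIs, Ccr2, Csf1r and Ptprc but no Ace, Treml4 or Siglech UMI. Nr4a1 was higher in the mesenchymal-poor cells in 3 of 4 libraries and lower at 7 dpi, so the ranges overlap. Nr4a1 is also an immediate early gene that rises during tissue digestion, and 55.4% of T cells carried it at 2000 UMIs per cell, so its presence alone does not mark this lineage.

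The adhesion and signalling genes of the lineage separated the groups more clearly. Itgal, the alpha chain of the integrin LFA-1 that nonclassical monocytes use to crawl on endothelium, was at 385, 392, 373 and 258 CPM in mesenchymal-poor gated cells. It was at 70.6, 98.2, 93.8 and 75.4 CPM in classical monocytes and at 5.37 to 28.2 CPM in the C1q macrophages (825 cells: 55, 367, 352 and 51), which have at least 10 C1q UMIs and no Ace or Treml4. Every library of the mesenchymal-poor cells lay above every library of both other classes. Mesenchymal-rich gated cells were at 17.9, 35.9, 17.9 and 71.6 CPM, below the mesenchymal-poor cells.

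Pou2f2, which encodes the transcription factor OCT2, was at 299, 275, 404 and 386 CPM in mesenchymal-poor cells against 77.6 to 117 in classical monocytes and 10.2 to 47.8 in mesenchymal-rich cells. Gngt2, a G protein gamma subunit, was at 1379, 515, 714 and 824 CPM against 81.3 to 302 and 23.8 to 167. Stk10, a kinase of leukocytes that acts on the cytoskeleton, was at 299, 268, 342 and 103 CPM against 65.9 to 98.2 and 0 to 35.8. None of these ranges overlapped between mesenchymal-poor cells and either of the other groups. The share of all genes without overlap was not counted for these cells, while in the whole gate it was 953 of 6204 against classical monocytes. In mesenchymal-poor cells 12 of the 22 nonclassical monocyte genes were above classical monocytes in all 4 libraries and 0 below. Nr4a1, Cebpb, Cx3cr1, Itgax, Pglyrp1, Fcgr4, Cd300ld, Klf2, Lair1 and Cd274 were not among the 12.

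Adgre4, an adhesion receptor also known as F4/80-like receptor or EMR4, was at 107, 151, 93.2 and 25.8 CPM in mesenchymal-poor cells and 4.51 to 18.9 in classical monocytes, again without overlap, although the 7 dpi value rests on 1 UMI. Spn, which encodes CD43, a surface sialomucin that is high on nonclassical monocytes, was at 64.1, 68.7, 248 and 103 CPM against 15.1 to 73.1, and these ranges overlapped. Ear2, a ribonuclease of the eosinophil-associated family with close paralogs that share sequence, was at 267, 82.4, 62.1 and 155 CPM against 5.41 to 27.6, and since counting can split reads among paralogs its level is uncertain. Ear2 was not confined to mesenchymal-poor cells: 7 of 48 mesenchymal-rich cells held it, with 27, 15 and 15 UMIs in single Uninjured cells. Cx3cr1, the fractalkine receptor, was at 192, 268, 155 and 129 CPM against 72.9 to 193, which overlapped. Itgal, Pou2f2 and Gngt2 thus stood clear of classical monocytes with at least 10 UMIs in each library. Stk10 had 4 UMIs at 7 dpi, close to the floor of 3, and the ranges of Spn, Cx3cr1 and Nr4a1 overlapped.

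**Figure D3:**
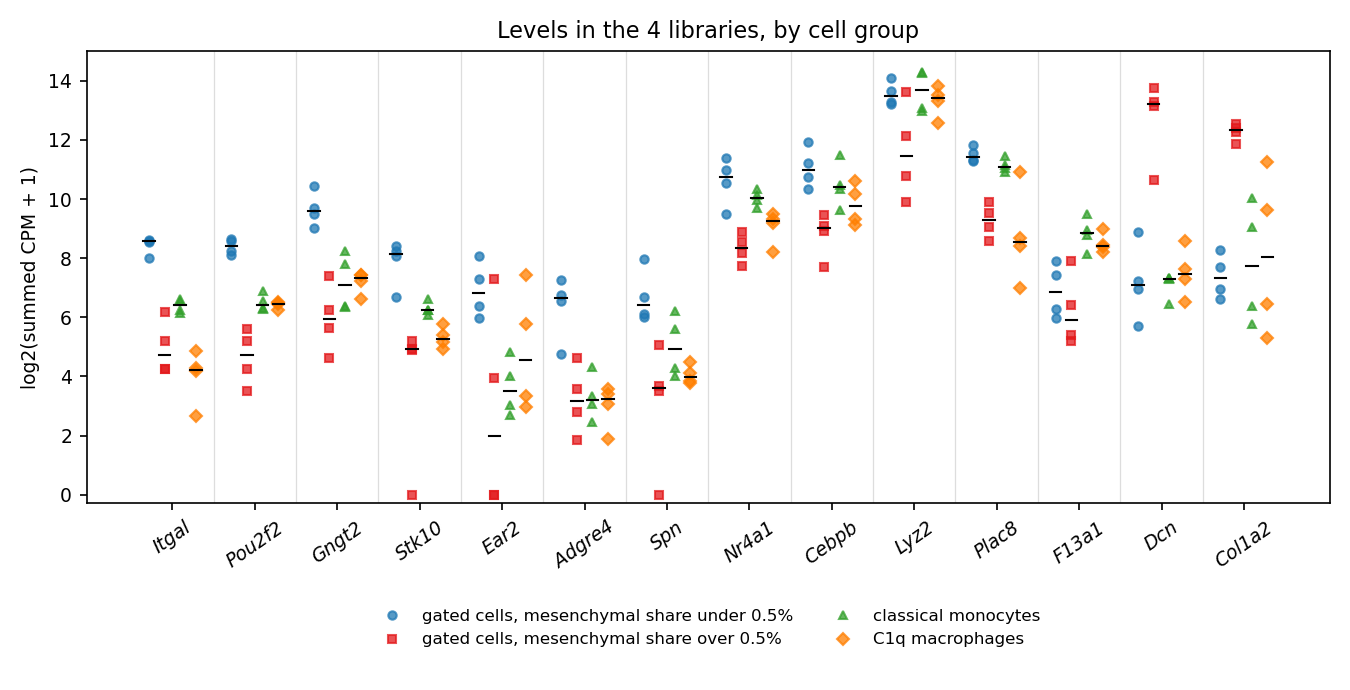
Summed level, log2(CPM + 1), of 14 genes in each of the 4 libraries (points) for mesenchymal-poor and mesenchymal-rich gated cells, classical monocytes and C1q macrophages; bars are medians over libraries. Itgal, Pou2f2, Gngt2 and Stk10 of the mesenchymal-poor cells lie above the other groups, and Dcn and Col1a2 are highest in the mesenchymal-rich cells. Dcn and Col1a2 are among the genes on which the gated cells were split.

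Of 4 genes that mark classical monocytes, 1 was lower in the mesenchymal-poor cells in all 4 libraries and 1 was higher. F13a1, the A subunit of coagulation factor XIII, was at 171, 240, 62.1 and 77.3 CPM against 436, 499, 724 and 279. Plac8, a small cysteine-rich protein of myeloid cells, was at 3612, 3002, 2515 and 2550 CPM against 2250, 2785, 1925 and 2108, the one gene of this list above classical monocytes in all 4 libraries. Lyz2 was at 17440, 9417, 10091 and 12984 CPM against 19792, 8115, 8660 and 20213, higher in 2 libraries and lower in 2. Chil3, a chitinase-like secreted protein, was at 74.8, 460, 373 and 1417 CPM against 402, 610, 598 and 894, with the 7 dpi library above its classical monocytes.

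At a common depth of 2000 UMIs per cell the same order was seen in shares of cells. Treml4, which the gate used and which only describes the cells, was detected in 37.0% of mesenchymal-poor and 0% of mesenchymal-rich cells. It was detected in 0.159% of T cells, which should lack it. Unthinned, its shares in these groups were 58.7%, 6.25% and 0.145%, with median depths of 5040.5, 17156 and 4159.5 UMIs. Gngt2 was detected in 73.9%, 10.4% and 21.8% of mesenchymal-poor, mesenchymal-rich and classical cells, Itgal in 47.8%, 8.33% and 18.4%, and Pou2f2 in 37.0%, 4.17% and 16.4%. In T cells these 3 shares were 3.17%, 35.4% and 7.94%, so Itgal is not restricted to monocytes. Each share was above that of classical monocytes in the mesenchymal-poor cells and below it in the mesenchymal-rich cells.

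Taking the 22 nonclassical monocyte genes as a list (chosen with earlier results of these data known), 15 passed the filter on low counts among mesenchymal-poor cells. Of these 15, 8 (Spn, Itgal, Cd36, Pou2f2, Ear2, Gngt2, Dusp16 and Stk10) were higher than in the classical monocytes with under 0.5% mesenchymal share in each of the 4 libraries and 0 were lower in each, against 6.70% and 15.0% of the 4284 genes in that fit. Cd36, a scavenger receptor, rests at 7 dpi on 1 cell with 17 of 18 UMIs. It had 2 UMIs in the Uninjured library and 1 at 3 dpi, Ear2 had 2 at 3 dpi and Dusp16 had 1 at 7 dpi. These counts were all under the floor of 3 UMIs. Against C1q macrophages under the limit 9 of 15 were higher in each library and 0 lower, against 12.4% and 15.7% of all genes. Of 11 classical monocyte genes 6 were lower than in classical monocytes in each library, F13a1, Vcan, Fn1, Hp and Ms4a4c among them, and 1 was higher.

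The mesenchymal-poor cells were not alike among themselves. The 27 with Treml4 had a median of 6555 UMIs and the 19 without it 4539, and the nonclassical genes summed to a median of 0.851% and 0.973% of a cell's UMIs, against 0.214% in mesenchymal-rich cells. Ear2 was found in 12 of 27 and 6 of 19, Spn in 9 and 7, and Cx3cr1 in 16 and 11. Csf1r, which the rule used, was at exactly 1 UMI in 3 of 27 and 11 of 19, against 30 of 48 mesenchymal-rich cells, and the B cell genes reached 3 UMIs in 3 and 6, against 38. The cells with and without Treml4 were thus close in some of these counts and apart in others, and no test between them was run.

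MHC class II divided the mesenchymal-poor cells. H2-Aa, the alpha chain of I-A, was at 0 UMIs in 26 of 46 cells and at 5 or more in 15. One Uninjured cell held 124 of the 228 H2-Aa UMIs there and one 1 dpi cell 118 of 193. At 1 dpi 1 cell carried all 10 Flt3 UMIs, a receptor of dendritic cells, and 2 cells all 15 Cd79a UMIs, a part of the B cell receptor. At 7 dpi 1 cell carried all 15 Cdh5, 16 Pecam1 and 20 Vwf UMIs, markers of endothelium. A few cells of other or mixed profile thus remained among the 46, and single cells set several summed levels.

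Against classical monocytes, the whole gate differed first by its mesenchymal genes. With UMIs summed per library and class, 742 of 6204 genes (12%) were higher and 594 (9.57%) lower in the gated cells by edgeR's quasi-likelihood test at a Benjamini-Hochberg adjusted p under 0.05, and 2104 had an unadjusted p under 0.05. Of the 742 higher genes, 711 (95.8%) were also higher in mesenchymal cells than in classical monocytes in all 4 libraries, against 27.4% of all tested genes. With cells under the mesenchymal limit alone, 31 of 4284 genes (0.724%) were higher and 12 (0.280%) lower, of which 11 and 8 were among those called with all cells. The count lower in the gate fell to 256 without the Uninjured, 192 without the 1 dpi and 293 without the 3 dpi library, and the count higher to 412 without the 1 dpi and 494 without the 3 dpi library.

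Among the genes furthest above classical monocytes, Dcn, the proteoglycan decorin, was at 855 to 11129 CPM in the gate against 85.9 to 160 in classical monocytes (log2 fold change 5.41, SE 0.69, adjusted p = 0.000364 by edgeR with Benjamini-Hochberg adjustment). Sfrp4 and Sfrp2, secreted Wnt antagonists, were at 7.11 and 5.13 on the log2 scale, Cxcl14, a chemokine, at 5.60, and Clec3b, tetranectin, at 5.29. Cpxm1, Dpep1, Plpp3, Angptl1 and Abi3bp, the other named genes, lay between 5.14 and 5.64. All 8 mesenchymal genes were higher, from 2.64 for Postn to 5.41 for Dcn, with Pdgfra, the receptor that marks fibroblast progenitors, at 5.08.

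Among the genes furthest below classical monocytes, Prtn3, a granule protease of myeloid progenitors, had a log2 fold change of -6.73. F13a1, a gene of classical monocytes, was at -2.32. Osm, the cytokine oncostatin M, was at -2.34, Ccl5, a chemokine of lymphocytes, at -2.47 and Ccr1, a chemokine receptor, at -2.10. Msr1, a scavenger receptor, was at -2.08. Ube2c, a gene of the cell cycle, was at -2.59, Tuba4a, a tubulin, at -2.54 and Ms4a6d at -2.11.

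By list, the nonclassical genes did not stand out in the whole gate. Of 16 tested, 1 was higher (Ear2, log2 fold change 2.05, SE 0.42) and 2 lower (Nr4a1 at -0.74, SE 0.18, and Cebpb at -0.74, SE 0.20), with a median of -0.06 against -0.08 over all genes. Cebpb encodes a transcription factor that nonclassical monocytes need. With cells under the limit, 6 of 15 were called higher (Cd36, Ear2, Gngt2, Itgal, Pou2f2 and Stk10) and 0 lower, with a median of 1.16 against -0.07. Of all genes tested against classical monocytes, 12% were called higher and 9.57% lower in the whole gate. With cells under the limit these shares were 0.724% and 0.280%. Of the classical monocyte genes 7 of 11 were lower in the whole gate, with a median of -1.48 against -0.08 over all genes, and 1 (F13a1) with cells under the limit, with a median of -0.87 against -0.07 over all genes. Of the mesenchymal genes 1 of 4 tested, Dcn, was still called higher with cells under the limit, with list medians of 0.95 against classical monocytes and 1.06 against macrophages, and 1 dpi cells with 98 and 47 mesenchymal UMIs were among them. The limit was set on the genes of this list, so their lower medians and fewer tested genes follow from the selection.

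**Figure D4:**
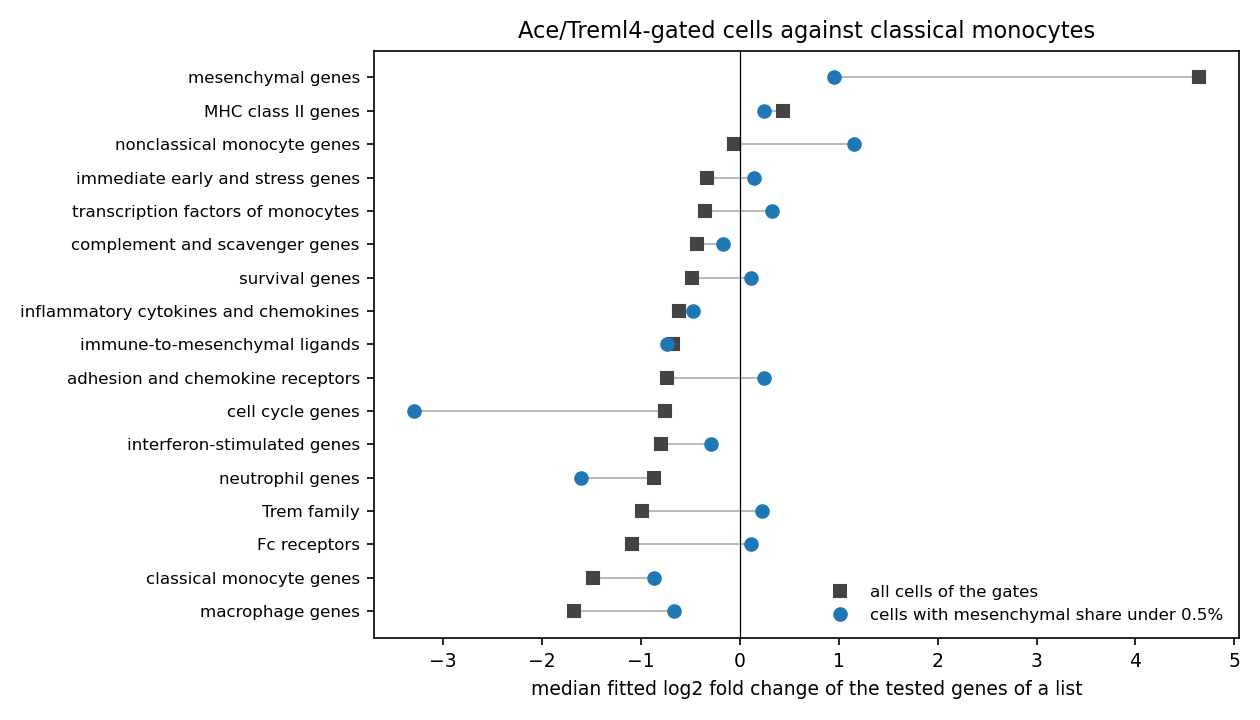
Median fitted log2 fold change of each gene list in gated cells against classical monocytes (x axis), with all gated cells (dark squares) and with cells under the 0.5% mesenchymal limit (blue circles). The median of the mesenchymal list is 4.65 over 8 tested genes with all cells and 0.95 over 4 with cells under the limit, and that of the nonclassical list is -0.06 and 1.16. The limit was set on the genes of the mesenchymal list, so the fall of that list follows from the selection.

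In other lists most calls were lost with the change of cells, as they were over all genes, where the share called higher went from 12% to 0.724% and the share called lower from 9.57% to 0.280%. Of 22 monocyte transcription factors 2 (Tcf7l2 and Cebpd) were higher and 7 lower in the whole gate, among them Spi1, which encodes the myeloid factor PU.1, and Irf8, and with cells under the limit 1 of 20 (Pou2f2) was higher and 0 were lower. Of 14 adhesion and chemokine receptor genes 1 was higher and 7 were lower, against 1 (Itgal) and 0. Of the Trem family 4 of 6 were lower (Trem1, Trem2, Tyrobp and Hcst) against 0 of 7. None of 7 MHC class II genes passed the test in either set. The lower counts with the 46 cells come with fewer UMIs, 310190 against 1188824, and 4284 genes tested.

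Against C1q macrophages, 768 genes (12.4%) were higher and 777 (12.5%) lower in the gate, and 188 (4.39%) and 241 (5.63%) with cells under the mesenchymal limit. Of the 768, 727 (94.7%) were higher in mesenchymal cells than in macrophages in all 4 libraries, against 31.4% of all tested. Without the 1 dpi library the counts were 385 higher and 340 lower, and without the 3 dpi library 510 and 451. As against classical monocytes, most of the higher genes were ones that mesenchymal cells express.

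Macrophage genes were lower in the gate whichever cells were used. Of 11 tested 10 were lower and 0 higher, with a median of -3.23 against -0.02 over all genes, and under the limit 9 of 10 were lower. Over all genes 12.5% were called lower in the whole gate and 5.63% under the limit. The gated cells and the macrophages were split on C1q UMIs, and the C1q genes belong to this list but were not tested. Lower levels of the other macrophage genes are thus partly set by the selection. Folr2, a folate receptor of resident macrophages, had a log2 fold change of -5.60, Cbr2 of -5.51, Trem2, a lipid receptor, of -3.93, and Mrc1, the mannose receptor, of -3.88. Apoe, apolipoprotein E, was at -2.96. Ccl12, a chemokine, passed the test with 1 UMI in all gated cells against 36.2 to 801 CPM in macrophages. Among other genes Ms4a7 was at -5.93, Pf4 at -5.45, C3ar1, a complement receptor, at -5.35, Lyz1 at -4.34, Stab1, a scavenger receptor, at -4.12 and Gdf15 at -3.96. Folr2, Cbr2, Ms4a7, Pf4, C3ar1, Lyz1, Stab1 and Gdf15 each had a gated library at 0 UMIs, so the size of their fitted fold depends on the prior count.

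Itgal, Spn and Stk10 were higher than in macrophages in the whole gate, at 2.49 (SE 0.30), 1.41 (SE 0.39) and 1.05 (SE 0.22), while Fcgr4, Lair1 and Cd300ld were lower. With cells under the limit 9 of 15 nonclassical genes were called higher and 0 lower, Nr4a1 and Cebpb among them, with a median of 1.39 against -0.09. MHC class II genes were lower in the whole gate in 6 of 7, with a median of -1.21 against -0.02 over all genes, and under the limit in 3 of 7, with a median of -1.15 against -0.09. Of all genes 12.5% and 5.63% were called lower in these fits, and 12.4% and 4.39% higher. Under the limit 6 of the 7 were lower than in macrophages in each of the 4 libraries, against 15.7% of all genes. All 5 Fc receptor genes were lower in the whole gate and 2 of 5 (Fcgr1 and Fcgr2b) under the limit. The genes furthest above macrophages were Itih5 at 5.55, Clec3b at 5.43, Svep1 at 5.42, Adm, adrenomedullin, at 5.37, Sfrp4 at 5.32, Cxcl14 at 5.12, Lama2 at 5.09, Col4a1 at 4.98, Igfbp5 at 4.97 and Col15a1 at 4.96.

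The gated cells made up 0.287% (exact 95% interval 0.199 to 0.401), 0.249% (0.164 to 0.362), 0.142% (0.0866 to 0.219) and 0.0565% (0.0301 to 0.0965) of the cells kept, from 34, 27, 20 and 13 cells. Mesenchymal-poor cells made up 0.127%, 0.138%, 0.0567% and 0.0347%, and cells with both Ace and Treml4 0.0846%, 0.0829%, 0.0142% and 0.0130%. The intervals at Uninjured and 7 dpi do not overlap for the whole gate, and those at Uninjured and 1 dpi do. The library with the highest share changed with the gate: with 1 UMI of Ace and Treml4 required in place of 2 the shares were 0.380%, 0.498%, 0.269% and 0.152%, highest at 1 dpi, as they were for mesenchymal-poor cells. They cover counting error within a library and not the spread between mice. Median depth over all cells also fell along this order, from 8629 to 5561.5, 4214 and 3083 UMIs, and at 2000 UMIs per cell the order was not kept: 2, 3, 8 and 3 cells passed, or 0.0177%, 0.0303%, 0.0723% and 0.0186% of the cells deep enough, with overlapping intervals.

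**Figure D5:**
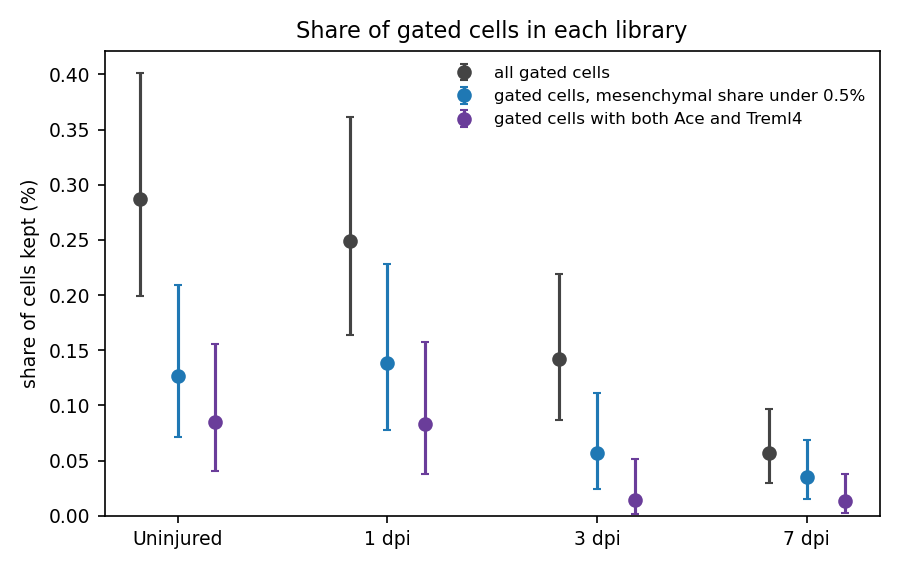
Share of kept cells in each library (y axis, percent, linear from 0) that passed the gate (dark), that were mesenchymal-poor (blue) and that held both Ace and Treml4 (purple), with exact 95% binomial intervals. The whole gate runs from 0.287% in the Uninjured library to 0.0565% at 7 dpi, while the mesenchymal-poor cells, like a gate at 1 UMI of Ace and Treml4 (not drawn), are highest at 1 dpi.

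Relative to classical monocytes the order was another. Gated cells, mesenchymal-rich ones included, were 44.2%, 4.65%, 13.2% and 20.6% of the gated cells and classical monocytes together. With cells under the mesenchymal limit the shares were 25.9%, 2.65%, 5.93% and 15.1%. The low share at 1 dpi came with 554 classical monocytes, against 43 in the Uninjured library. Both ways of counting placed the highest share in the Uninjured library and the lowest at 1 dpi, as did the count at 2000 UMIs per cell (22.2%, 1.88%, 17.8% and 13.6%). That Uninjured share rested on 2 gated cells, with an interval of 2.81 to 60.0% that holds the 3 dpi share. With both Ace and Treml4 required the lowest share was at 3 dpi, 1.50% against 1.60% at 1 dpi.

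Between time points, levels in the gated cells are ratios of 2 libraries with no replicate check. Among genes with at least 30 UMIs over both libraries, 582 of 4328 (13.4%) were at least 2-fold higher and 227 (5.24%) at least 2-fold lower at 1 dpi than in the Uninjured library. Centred on the median ratio of 1.13 the split was 388 and 330. Uncentred, it was 312 (9.48%) and 265 (8.05%) of 3290 at 3 dpi, and 162 (6.03%) and 360 (13.4%) of 2688 at 7 dpi. Centred, it was 279 and 299 at 3 dpi, so the balance turned, and 181 and 355 at 7 dpi. The 3 dpi balance also turned under the mesenchymal limit, at 51 and 98. The mix of mesenchymal-rich and mesenchymal-poor cells differed between libraries, and its part in these ratios was not tested beyond the values given for the mesenchymal-poor cells.

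The interferon-stimulated genes were the list with the highest median at 1 dpi among the lists with at least 10 tested genes. Of these, 12 of 14 tested were at least 2-fold higher and 0 lower, against 13.4% and 5.24% of all genes. Their median log2 ratio was 1.77 against 0.18 over all genes. Their summed level was 2429, 7165, 3163 and 2094 CPM in gated cells. The 1 dpi library was highest in both groups of the gate, at 2148, 5832, 2111 and 2241 CPM in mesenchymal-poor and 2496, 7863, 3365 and 1958 CPM in mesenchymal-rich cells. Classical monocytes were at 1979.5, 7291, 3054.5 and 2538 CPM and mesenchymal cells at 2820, 6963, 3306 and 1240.0, so the 1 dpi library was highest in each of these cell groups.

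Single interferon genes can be followed in both groups of the gate. Isg15, a ubiquitin-like modifier, had 44 and 155 UMIs in the gated cells of the Uninjured and 1 dpi libraries (4.02-fold, interval 2.86 to 5.76), and 14 and 58 in mesenchymal-poor cells. Irf7, the transcription factor of the interferon response, had 32 and 114 UMIs (4.07-fold, 2.73 to 6.23), and Rsad2, the antiviral enzyme viperin, 15 and 80 (6.09-fold, 3.48 to 11.4). In mesenchymal-poor cells Irf7 had 17 and 56 UMIs and Rsad2 1 and 67. Ifi202b, an interferon-inducible gene, had 45 UMIs in 13 cells at 1 dpi, 21 of them in mesenchymal-poor cells, and 0 in the Uninjured library. Ly6a, which encodes Sca-1 and is abundant in mesenchymal progenitors, had 100 UMIs in mesenchymal-poor cells at 1 dpi, 84 of them in 1 cell.

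MHC class II genes went the other way at 1 dpi, with 6 of 7 at least 2-fold lower against 5.24% of all genes, and a median log2 ratio of -2.05 against 0.18. The summed list was at 15598, 3822, 8580 and 8266 CPM in gated cells, at 14234, 6807, 10122 and 3452 in mesenchymal-poor cells and at 4373, 3680.5, 6489 and 11025 in classical monocytes. Cd74, the invariant chain, had 3452 and 729 UMIs (0.24-fold, interval 0.22 to 0.26). As single cells held 54.4% and 61.1% of the H2-Aa UMIs of the mesenchymal-poor cells in the Uninjured and the 1 dpi library, these levels describe few cells.

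In mesenchymal-poor cells Itgal ran from 258 to 392 CPM and Pou2f2 from 275 to 404 over the 4 libraries. Klf2, a transcription factor of quiescence and vessel shear that tissue digestion also moves, ran from 1366 to 5172 CPM with the highest level in the Uninjured library, and in classical monocytes from 1056 to 3072 with the same highest library. Il1b, the cytokine interleukin 1 beta, was at 2137, 2747, 3291 and 1829 CPM, against 2581, 1300, 1230 and 1112 in classical monocytes. Tgfb1, a growth factor for mesenchymal cells, was at 470, 419, 311 and 515 CPM, above the 313, 188, 165 and 215 CPM of classical monocytes in each library.

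Several of the largest single-gene ratios rested on 1 cell. At 7 dpi Fabp4, a fatty acid binding protein of fat and capillary cells, had 266 UMIs, all in the 1 mesenchymal-poor cell that also held the endothelial markers, and Aqp1, a water channel of endothelium, had 95 of its 98 UMIs there. Plvap and Lrg1, which endothelial cells express, had 22 of 22 and 21 of 22 UMIs in that cell, and Tagln, a smooth muscle gene, 24 of 29. Chil3 was spread more widely, with 11 UMIs in the Uninjured library and 56 in 5 cells at 7 dpi (30.5-fold, interval 15.8 to 64.7), 55 of them in 4 mesenchymal-poor cells. For Acta2, Mest, Mgst3 and Cthrc1 the mesenchymal-rich cells held 22 of 24, 29 of 29, 21 of 21 and 36 of 36 UMIs, and the 24 of Acta2 lay in 4 cells with at most 9 in 1.

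Of the genes lower after injury, Retnla, a secreted protein of resident macrophages and stroma, had 774 UMIs in 4 Uninjured cells and 0 in each later library, at least 226-fold lower at 1 dpi against the floor of 3 UMIs. S100a8 and S100a9, calprotectin subunits of neutrophils, had 663 and 661 UMIs in the Uninjured library, 578 and 597 of them in 1 mesenchymal-rich cell that also held all 236 Retnlg UMIs. Mt2, a metallothionein, had 608 of 859 UMIs in another mesenchymal-rich cell, which also held 80 of 85 Fxyd6 and 31 of 34 Tnmd UMIs. The remaining named genes at 7 dpi, Myoc, Lcn2, Hmcn2, Podn and Serpinb1a, had 74 to 252 UMIs in the Uninjured library, at most 1 of them in mesenchymal-poor cells, and 0 at 7 dpi.

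At 1 dpi Il10, the anti-inflammatory cytokine interleukin 10, had 46 UMIs in 4 cells, 45 of them in mesenchymal-poor cells and 31 in 1 cell, and 0 in the Uninjured library. Igkc, an immunoglobulin light chain, had 51 UMIs in 13 cells against 1, with 34 in mesenchymal-poor cells, and Saa3, an acute phase protein, had 46 UMIs of which 45 were in 1 mesenchymal-rich cell. Comp, a cartilage matrix protein, had 35 UMIs in 1 mesenchymal-rich cell. At 3 dpi Cxcl13, a chemokine for B cells, had 65 of 68 UMIs in 1 mesenchymal-rich cell. Adamts4, Aldh1a2, Ly6d and Enc1 had 28 to 58 UMIs at 3 dpi, 7 of them in mesenchymal-poor cells, all of Ly6d. Of the 10 genes named as higher at 1 and 3 dpi, Il10, Ifi202b, Igkc and Ly6d had UMIs in mesenchymal-poor cells, and the other 6 had 0 there.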

How the data were processed

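The authors prepared 1 10x library per time point, and the deposited values are raw UMI counts made with Cell Ranger 5.0.0, which aligned reads with STAR. The processing notes name mm10 and Seurat 3.1.1, and the annotation version is not given in the sources used here. The methods describe a down-sampling of reads without saying if these counts come before or after it. Cells with over 10% mitochondrial UMIs were left out. The gate, gene lists and comparison classes were chosen with earlier results of these data known, and the 0.5% mesenchymal limit after the values were seen.

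Counts were summed per library and class (12 sums) and fitted with edgeR 4.0.16 (R 4.3.3, quasi-likelihood, TMM, filterByExpr) with library as a block, so that the spread is that of class differences between 4 libraries. Genes of the gates stayed out of the counts of calls. On simulated counts of 6204 genes in this comparison the fit recovered 90% of 4-fold and 45% of 2-fold changes and called 0.0999% of unchanged genes. The simulation used 1 spread for all genes and the sums of the whole gate. These rates therefore do not cover the fit under the mesenchymal limit or genes carried by single cells. Time ratios used genes with at least 30 UMIs and conditional binomial 95% intervals, which cover counting error only. Named genes passed the adjusted threshold in the same direction in all 4 libraries with at least 100 CPM in the higher class (10 per direction), or, over time, had intervals without 1 (10 per direction at 7 dpi, 5 at 1 and 3 dpi). Genes of the lists were named with their list. One gene that met this rule is not reported here. Doublet scores came from Scrublet in scanpy 1.11.5, and no cells were removed by them outside the alternatives. Libraries shared 30 to 95 barcodes per pair, and 0 of these were gated cells in both. Positions are from GENCODE M21 (GRCm38).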

Additional observations from a re-analysis of the deposited data

How the results depend on the processing

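Shares of cells moved with the gate. With 1 UMI of Ace and Treml4 the shares were 0.380%, 0.498%, 0.269% and 0.152% (51.1%, 8.88%, 22.5% and 41.2% of gated cells and classical monocytes together). The highest share of cells was then at 1 dpi and not in the Uninjured library, as also with a mitochondrial share of at most 5% (0.316% against 0.298%), without the top 7.5% of doublet scores (0.179% against 0.174%) and under the mesenchymal limit, and at 2000 UMIs it was at 3 dpi. With 3 UMIs they were 0.0779% and 0.0130% at 3 and 7 dpi (7.75% and 5.66%). With both genes they were 0.0846%, 0.0829%, 0.0142% and 0.0130% (18.9%, 1.60%, 1.50% and 5.66%). Without the top 7.5% of doublet scores they were 0.174% and 0.0766% in the Uninjured and 3 dpi libraries (31.1% and 7.69%). At 2000 UMIs per cell they were 0.0177%, 0.0303%, 0.0723% and 0.0186% (22.2% and 1.88% in the Uninjured and 1 dpi libraries). Under the mesenchymal limit they were 0.127%, 0.138% and 0.0567% in the first 3 libraries (25.9%, 2.65% and 5.93%). Against classical monocytes the genes called higher and lower were 1357 and 1173 with no filter, 283 and 128 without high doublet scores, 104 and 73 at 2000 UMIs and 31 and 12 under the limit, with 388 lower when the 2 classes were fitted alone. Against macrophages they were 1420 and 1330, 358 and 344, 173 and 169, and 188 and 241, with 496 lower when fitted alone. Without library as a replicate block they were 469 and 200 against classical monocytes and 424 and 357 against macrophages. Leaving out a library in turn gave 412 to 917 higher and 192 to 703 lower against classical monocytes and 385 to 984 and 340 to 961 against macrophages. Over the named class genes, counting only genes tested in a setting, 448 repeated fits kept the call, 24 lost it and 0 changed direction. Under the mesenchymal limit 12 calls were kept and 8 lost, and the other 20 of the 40 named could not be tested there. Genes at least 2-fold higher and lower at 1 dpi were 303 and 145 with at least 50 UMIs, 1487 and 592 with 10, 53 and 44 at 2000 UMIs and 219 and 104 under the limit, with 365 higher without high doublet scores, and 149 and 87 were at least 3-fold. At 3 dpi the same counts were 155 and 171, 1193 and 705, 37 and 60, 51 and 98, 102 and 160, and 76 and 83. Apart from the setting with 10 UMIs, each of these pairs turned the 3 dpi balance to more lower genes. At 7 dpi the counts were 77 and 200, 737 and 1224, 15 and 51, 34 and 69, 88 and 127, and 40 and 184. The mesenchymal limit, the counts under it and the sums without the cells with the most UMIs of a list were added after seeing the data, and the causes of these shifts were not tested. With 13 to 34 gated cells per library, depth limits each level, and 1 library per time point leaves no spread between mice.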
